A study of Mus musculus with 6 samples.

Results

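Mouse embryonic stem (mES) cell lines of 1 study differed from each other at 2994 of 24086 autosomal array probes, 12.4%, by a rule that asked for 1 line to stand at least 2-fold above or at least 2-fold below both other lines. The 3 lines were ESF122, ESF175/1 and ESF58/2, each measured on 1 array out of 6 in the series. The rule read only the 3 mES arrays. It took the log2 signal of each probe relative to its array's 75th percentile, called the scaled log2 signal below, and kept probes marked well above background on at least 2 of the 3 arrays. Of 41174 probes, 28788 met that filter, of which 832 on the X or Y chromosome and 3870 that could not be placed on an autosome were left out. The 2994 probes stood for 2604 of the 15318 genes that entered, of 19505 named genes on the array. They were chosen by these folds, so their values describe the lines and were not tested, and with 1 array per line there is no replicate check.

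The series set mES cells beside epiblast stem cells (EpiSCs), lines derived from the later, postimplantation embryo. All lines were grown on irradiated mouse embryonic fibroblasts (MEFs) in medium with knockout serum replacement, the mES lines with leukemia inhibitory factor (LIF) and the EpiSC lines with the growth factor FGF2. The EpiSC arrays held EpiSC-5 and EpiSC-7 at passages 20 and 25. No treatment, genetic background, sex or passage is stated for the mES lines, and 1 label of the line called ESF58/2 here reads ESF58/1. The RNA came from whole cultures, so RNA of the feeder fibroblasts could be in every sample.

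mES cells are held in the so-called naive state, in which LIF acts through STAT3 and a network of transcription factors such as Klf4, Tbx3, Tfcp2l1 and Esrrb sustains Nanog, Pou5f1 and Sox2. Cells that leave this state take up genes of the postimplantation epiblast, such as Fgf5, Otx2, Pou3f1 and the DNA methyltransferases Dnmt3a and Dnmt3b. Single cells in an mES culture move between such states, and a small number pass through one that expresses genes of the 2-cell embryo, among them Zscan4 and the Tcstv genes.

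The share of probes well above background was 70.8% on the ESF122 array, 72.5% on ESF175/1 and 66.3% on ESF58/2, and the number of arrays limits the precision. The only error within an array is that of probes spotted 10 times, whose median SD was 0.08 on the log2 scale in each of the 3 lines, with a 95th percentile between 0.55 and 0.74. ESF122 and ESF58/2 shared a slide, at positions 4 and 1, while ESF175/1 lay at position 4 of another. ESF175/1 therefore cannot be told apart from its slide, nor ESF58/2 from its position. EpiSC-7 at passages 20 and 25 shared a further slide, at positions 4 and 1, so its passage cannot be told apart from position. Defining mES markers were well above background on all 3 arrays: Pou5f1 at 4.25, 4.50 and 4.57 (scaled log2 signal, here and below in the order ESF122, ESF175/1, ESF58/2), Sox2 at 3.14, 3.89 and 3.99, and Zfp42 at 5.58, 6.42 and 6.36. None of these 3 set a line apart, whereas the mES markers Nanog, Klf4, Tbx3 and Dppa3 were called in ESF58/2, as described below.

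The lines contributed unequally (plot of probe counts). ESF122 had 308 probes above both others (1.28% of the 24086) and 315 below (1.31%), ESF175/1 had 266 above (1.10%) and 682 below (2.83%), and ESF58/2 had 568 above (2.36%) and 1113 below (4.62%). Counted once per gene by its brightest probe, these were 217 genes above (1.42%) and 194 below (1.27%) in ESF122, 184 (1.20%) and 530 (3.46%) in ESF175/1, and 395 (2.58%) and 632 (4.13%) in ESF58/2. Gene counts below refer to the brightest probe. The excess of lower probes in ESF58/2 depends on the scaling: relative to each array's median its split was 833 above and 792 below, and after quantile normalization 717 above and 702 below. The median of all genes in ESF58/2 against the mean of the other lines was -0.08 on the main scale and 0.08 on the median scale.

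**Figure D1:**
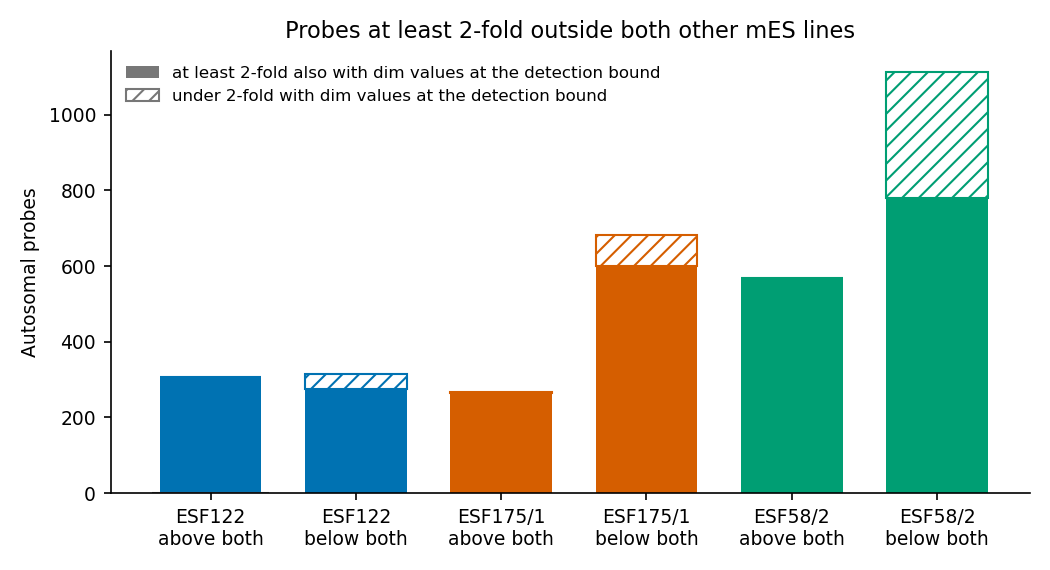
Number of autosomal probes (vertical axis) at least 2-fold above or below both other lines, for each mES line. The hatched part would be under 2-fold if a value not well above background were raised to the lowest signal that was; it takes 333 of the 1113 probes below in ESF58/2 and 0 of the 568 above.

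Some lower calls rest on dim values. In ESF58/2, 470 of the 1113 lower probes (42.2%) were not well above background there and give bounds, written "at least" below. Raised to the lowest signal well above background on the array, 780 of the 1113 stayed at least 2-fold lower, as did 600 of 682 in ESF175/1 and 275 of 315 in ESF122. The threshold cuts through a continuum: between 1.9-fold and 2-fold lay 174 probes lower in ESF58/2, and 158 lay between 2-fold and 2.1-fold. Just inside was Grb10 at 2.0008-fold (probe values -1.65, -1.64 and -2.65), and just outside Spink2 at 1.9995-fold (-0.69, -1.42 and -2.42).

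Between pairs of lines, 6.51% of probes well above background on both arrays were at least 2-fold apart for ESF122 and ESF175/1, 10.5% for ESF122 and ESF58/2, and 10.9% for ESF175/1 and ESF58/2. The same measure gave 6.74% for EpiSC-5 against EpiSC-7 at passage 20, 7.43% against passage 25, and 9.47% for EpiSC-7 at its 2 passages. The pair of arrays from a single EpiSC line therefore differed at a share of probes within the range of the pairs of different mES lines. By the rule used for the mES lines, in both directions together, EpiSC-5 stood apart at 2.31% of 25073 probes, EpiSC-7 passage 20 at 3.46% and passage 25 at 4.28%.

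ESF58/2 had higher signals of several naive-state factors. Of 18 naive-state genes measured, 6 were at least 2-fold above both other lines and 1 was below, beside 2.58% and 4.13% of all genes, and the list's median difference to the mean of the other lines was 0.52 against -0.08 for all genes. Tbx3, a T-box factor downstream of LIF signalling, read 1.12, 1.81 and 4.77, a signal 7.77-fold above the nearer line. Tfcp2l1, a STAT3 target that maintains self-renewal, read 1.11, 1.70 and 4.11 (5.33-fold), and Klf4 read 3.75, 4.41 and 5.93 (2.87-fold). In each of them ESF58/2 was highest and ESF122 lowest, with less than 2-fold between ESF122 and ESF175/1. Mras, a Ras-family GTPase, read -1.25, -0.50 and 2.08 (5.97-fold), and Tcl1, a co-activator of AKT, 0.09, 0.91 and 2.11 (2.30-fold). Nr5a2, an orphan nuclear receptor, was spread over all lines at -0.12, 1.95 and 3.52, below both others in ESF122 and above both in ESF58/2.

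The other naive-state genes did not form a block with these. Dppa3, a maternal factor that protects methylation marks in the early embryo, read 2.35, 2.82 and -0.95 and was 9.84-fold below the nearer line in ESF58/2. Esrrb at -2.70, -2.03 and -1.91, Klf2 at 7.43, 7.26 and 7.01 and Dppa5a at 8.47, 8.47 and 8.71 set no line apart. Of the 13 core pluripotency genes, Nanog alone was called, at 2.29, 3.01 and 4.19, or 2.27-fold above the nearer line in ESF58/2. Kit, the receptor for stem cell factor, whose probe was spotted 10 times, read -0.36 ± 0.06, 0.54 ± 0.04 and 2.04 ± 0.06 (SD of 10 spots within an array, not of cultures).

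Postimplantation epiblast genes ran the other way in ESF58/2: 7 of 17 were at least 2-fold below both other lines and 0 above. Of all genes, 4.13% were below and 2.58% above, and the list median was -0.75 against -0.08 for all genes. Lef1, a transcription factor of the Wnt pathway, read 2.64, 2.496 and -1.58, 16.9-fold below the nearer line, and its second probe at 0.17, 0.14 and -3.87 showed the same order. Dnmt3b, which lays down new DNA methylation, read 5.38, 4.84 and 2.19 (6.29-fold), Dnmt3a 3.23, 3.15 and 1.35 (3.48-fold), and their cofactor Dnmt3l 5.49, 5.06 and 2.93 (4.38-fold). These were the 3 called genes among 22 genes of DNA methylation and Polycomb silencing, the other 19 staying within 2-fold of another line. Pou3f1, a POU factor of the epiblast and early neural plate, read 5.40, 5.19 and 2.68 (5.70-fold), while Sall2 and Zic2 completed the list of transcription factors called lower.

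Fgf5, the classical marker of the postimplantation epiblast, differed between all lines: it read -0.50 in ESF122 and -2.81 in ESF175/1, and in ESF58/2 it was not well above background, which places it at least 4.84-fold below ESF175/1. On the EpiSC arrays, which the rule did not use, its scaled log2 signal was 5.02, 4.25 and 5.44. Otx2, by contrast, was higher in ESF122 only, as described below. Primitive streak genes were dimmer: 6 of 17 were lower in ESF58/2 and 1, Gsc, was higher (-3.80, -3.44 and -1.74), beside 4.13% and 2.58% of all genes. The lower ones included Fgf8 at -0.20 ± 0.07, -0.42 ± 0.07 and -1.48 ± 0.08 and T (brachyury) at -2.72 ± 0.35, -2.09 ± 0.16 and -3.72 ± 0.99, each over 10 spots. T sat on the threshold at 2.00-fold, within the spread of its spots, and under normexp background correction 1 streak gene, Wnt8a, stayed at least 2-fold lower.

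Cell adhesion genes of epithelia were the list with the largest share of lower genes in ESF58/2, 9 of 18, beside 4.13% of all genes. The list median was -1.14. Esrp1, a splicing factor that sets epithelial isoforms, read -0.67, -0.64 and -4.61 (15.3-fold), and its paralogue Esrp2 read -1.08, -1.18 and -3.15. Grhl2, a transcription factor that activates epithelial junction genes, read 2.07, 1.70 and -0.82 (5.74-fold), and both of its other probes were not well above background in ESF58/2. Among junction proteins, Epcam read 2.88, 2.99 and 1.46 and Cldn6 0.34, -0.41 and -2.36, whereas E-cadherin (Cdh1) at 4.12, 3.68 and 3.12 was lowest in ESF58/2 without reaching 2-fold. In all of these, ESF122 and ESF175/1 lay closer to each other than either to ESF58/2.

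**Figure D2:**
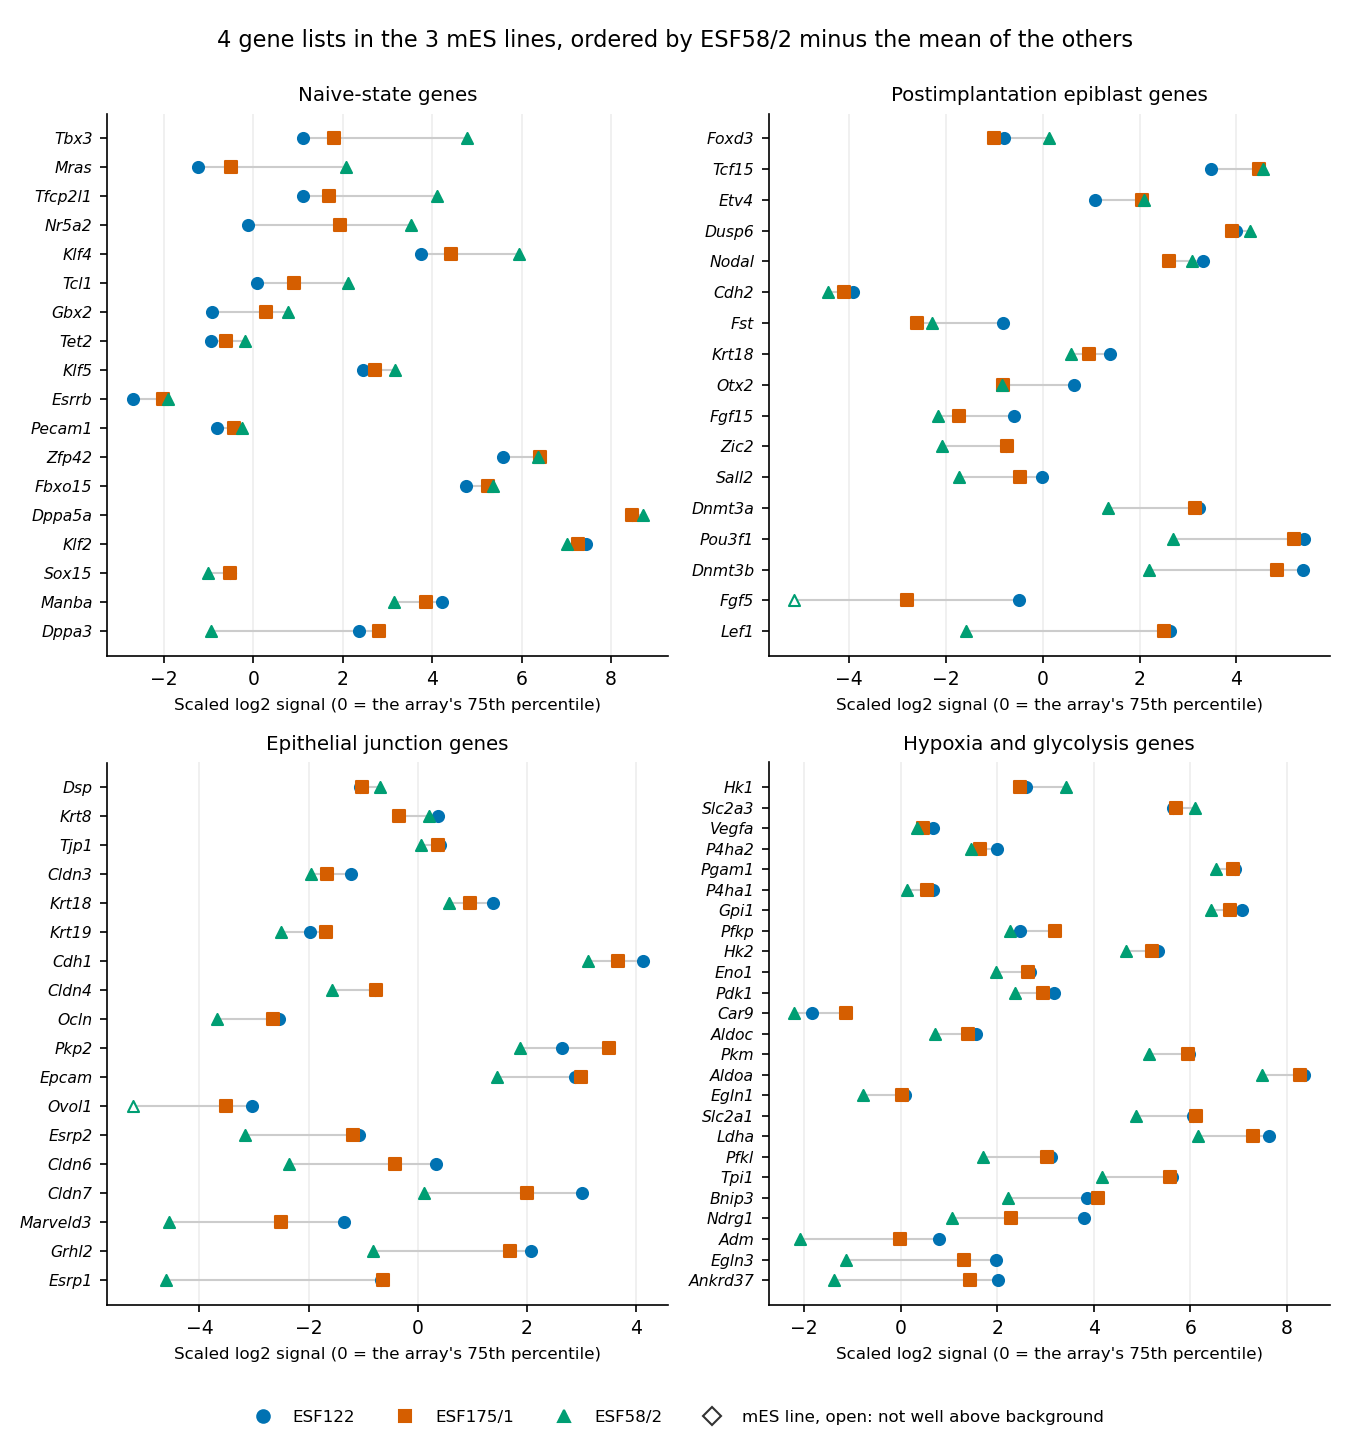
Scaled log2 signal (horizontal axis) of every measured gene of 4 lists in the 3 mES lines, 1 array each, ordered by the difference of ESF58/2 from the mean of the others. Triangles for ESF58/2 lie to the right for Tbx3, Mras and Tfcp2l1 and to the left for Lef1, Dnmt3b, Esrp1, Grhl2, Ankrd37 and Egln3; an open symbol was not well above background.

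Genes of the hypoxia response and glycolysis formed a further group below in ESF58/2. Of 25 measured, 9 were at least 2-fold lower and 0 higher, beside 4.13% and 2.58% of all genes, with a list median of -0.77. Ankrd37, Egln3, Adm and Bnip3, targets of the hypoxia-inducible factors, had the largest differences. Other hypoxia genes of the list, among them Vegfa, Car9 and Egln1, were called in no line. Ankrd37 read 2.02, 1.45 and -1.39 (7.13-fold), Egln3, an oxygen-sensing prolyl hydroxylase, 1.98, 1.32 and -1.14 (5.49-fold), and Adm, the vasodilator adrenomedullin, 0.79, -0.01 and -2.08 (4.19-fold). Bnip3, a mitophagy receptor, read 3.86, 4.09 and 2.23 (3.09-fold). The differences were smaller for the glucose transporter Slc2a1 at 6.05, 6.12 and 4.87, for lactate dehydrogenase Ldha at 7.62, 7.29 and 6.16, and for Pfkl, Tpi1 and Ndrg1, all 5 lying between 2.19-fold and 2.65-fold. On the EpiSC arrays the summed signal of the list, relative to the 75th percentile, was 688 in EpiSC-5, 1038 in EpiSC-7 at passage 20 and 628 at passage 25. The mES lines read 1135, 1038 and 648, so the list also differed between arrays of a single line. For those EpiSC-7 arrays, passage and slide position cannot be told apart.

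Since these genes share a known regulator, their promoters are shown for the 3 with the largest difference whose window holds the core letters bound by hypoxia-inducible factors, ACGTG on either strand (CACGT on the other), which overlap the E-box CACGTG. The windows run from 250 bases before to 50 bases after the start, from RefSeq on GRCm38.p6, 5′ to 3′ on the gene's strand, with the matches in capitals. Ankrd37 is at chr8:45999801-46000100, Egln3 at chr12:54203825-54204124 and Bnip3 at chr7:138909457-138909756, all on the minus strand.
Ankrd37: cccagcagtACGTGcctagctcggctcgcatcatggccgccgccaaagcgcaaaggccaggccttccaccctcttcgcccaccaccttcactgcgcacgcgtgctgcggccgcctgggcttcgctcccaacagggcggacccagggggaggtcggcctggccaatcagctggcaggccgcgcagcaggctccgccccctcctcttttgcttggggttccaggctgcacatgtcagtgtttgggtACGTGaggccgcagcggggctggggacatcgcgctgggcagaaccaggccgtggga
Egln3: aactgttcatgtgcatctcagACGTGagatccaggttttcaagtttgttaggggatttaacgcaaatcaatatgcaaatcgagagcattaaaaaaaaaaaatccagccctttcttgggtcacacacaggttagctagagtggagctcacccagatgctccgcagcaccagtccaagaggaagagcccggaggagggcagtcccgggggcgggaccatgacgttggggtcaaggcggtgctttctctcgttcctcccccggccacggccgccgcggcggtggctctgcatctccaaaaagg
Bnip3: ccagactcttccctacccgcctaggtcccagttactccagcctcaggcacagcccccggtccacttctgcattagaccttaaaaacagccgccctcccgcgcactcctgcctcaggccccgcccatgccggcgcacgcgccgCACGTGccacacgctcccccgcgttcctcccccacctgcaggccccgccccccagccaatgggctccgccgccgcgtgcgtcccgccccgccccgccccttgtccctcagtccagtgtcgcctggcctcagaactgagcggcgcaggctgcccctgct
The letters occurred in 5 of the 8 lower genes with a window in the table, in 7 of the 15 list genes called in no line, and in 19.7% of 27025 promoters of all genes. Ndrg1 had no entry. A match describes these windows only, and no binding was measured.

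Imprinted genes lower in ESF58/2 included those of the Dlk1-Dio3 cluster on chromosome 12, where noncoding RNAs are made from the maternal copy. Meg3 read 4.91, 4.50 and 2.11 (5.23-fold lower), Rian 2.94, 1.501 and -1.06 (5.90-fold) and Mirg 1.70, 0.80 and -1.48 (4.84-fold). These neighbours were called together, and all 4 further Meg3 probes were lower in ESF58/2 as well. Dlk1, the protein-coding gene of the cluster that is read from the paternal copy, was not lower in ESF58/2, at 0.41, -0.87 and 0.33. Of 19 maternally expressed genes, 5 were lower, with Cdkn1c and Calcr beside these 3, and Cobl was 3.84-fold higher at 1.23, 1.84 and 3.78. Of 16 paternally expressed genes, 2, Kcnq1ot1 and Magel2, were lower in ESF58/2 and 1, Plagl1, was higher. The list median was -0.75 for the paternally and -0.17 for the maternally expressed genes, against -0.08 for all genes. Of all genes, 4.13% were lower and 2.58% higher in ESF58/2. Calcr was called at 2.03-fold, and its difference was under 2-fold with median scaling, quantile normalization or normexp background correction.

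Signalling genes differed in both directions in ESF58/2. Of all genes, 2.58% were higher and 4.13% lower in this line. Of 17 LIF-STAT3 genes, 5 were higher (Klf4, Tfcp2l1, Pim3, Ccnd3 and Ly6g6e) and Lefty1 was lower. Among 16 genes of the Nodal pathway, the antagonists Lefty1 (3.63, 3.99 and 2.18) and Lefty2 (2.16, 2.17 and 0.89) and the corepressor Skil (2.48, 2.05 and 0.95) were lower, and 4 genes were higher. Smad7, an inhibitor of the same receptors, was 3.87-fold higher at 0.00, -0.07 and 1.95, the activin subunit Inhbb was 4.48-fold higher, and the subunit Inhba and the processing protease Pcsk6 completed the 4. Nodal itself, at 3.31, 2.60 and 3.09, set no line apart. Bmp4 read -1.48 ± 0.04, -1.43 ± 0.11 and 0.26 ± 0.07 over 10 spots, higher in ESF58/2, as were Id4, a target of BMP signalling (-2.96, -2.46 and 0.09), and Smad7, 3 of 17 genes of the BMP list.

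Of 21 primitive and visceral endoderm genes, 4 were above both other lines in ESF58/2 and 1, Foxa2, was below, beside 2.58% and 4.13% of all genes. The higher ones were Sparc, a matrix protein (2.91, 1.91 and 3.92), the type IV collagen chains Col4a1 (-1.49, -1.90 and -0.05) and Col4a2 (-1.33, -2.19 and 0.36), and the laminin chain Lama1, which read -4.45, -2.28 and 0.01 and was lower than both others in ESF122. These 4 encode matrix proteins, but another laminin chain, Lama3, outside the list, read 1.57, -1.01 and -1.57 and was lowest in ESF58/2. Of the list's markers, Gata6 at -2.04, -2.04 and -1.24 and Gata4 at -3.57, -4.41 and -3.50 set no line apart. Nor did Sox17 at -2.46, -3.51 and -2.67. Pdgfra, another marker, did: it read -1.83 ± 0.08, -3.60 ± 0.08 and -0.96 ± 0.09 over 10 spots. It was 3.41-fold lower in ESF175/1, and its second probe was called lower there too. Fibroblasts make type IV collagen too, and many fibroblast genes were higher in ESF58/2 than in the other mES lines. Of 27 fibroblast genes, 9 were above both other lines in ESF58/2 and 0 below, and under median scaling 14 were above. The summed signal of the 28 with a value on every array, relative to the 75th percentile, was 131, 69.6 and 226 in the 3 lines, with 27, 26 and 27 of the 28 well above background. In RNA of whole cultures, fewer cells of a type and less RNA per cell cannot be told apart. Their part in the values of the 4 genes was not tested.

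Large single differences in ESF58/2 also lay outside these lists. Reg2, a secreted protein of the Reg family, read 1.01 and -0.06 in ESF122 and ESF175/1 and was not well above background in ESF58/2, at least 32.4-fold lower. Imp4, a component of ribosome assembly, was at least 13.0-fold lower, and neither probe was well above background on any EpiSC array. Upward, Lims2, an adaptor at integrin contacts, read -4.11, -3.98 and -0.04 (15.3-fold), and 2810410L24Rik read 0.15, 0.15 and 3.78 (12.4-fold) with a second probe at -3.26, -3.31 and -3.31 that stayed within 2-fold. Tgm2, a transglutaminase, read -0.61, -1.33 and 2.83 (10.8-fold higher), and its other 2 probes were higher too. A run of 4 adjacent genes on chromosome 14, Plac9a, Tmem254a, Cphx1 and Duxbl1, was lower together, between 3.01-fold and 11.9-fold; Cphx1 and Duxbl1 belong to repeated families, so the copy measured is uncertain.

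ESF175/1 was set apart above all by fibroblast genes. Of 27 genes typical of fibroblasts, 20 were at least 2-fold below both other lines and 0 above, beside 3.46% of all genes below, with a list median of -2.28 against 0.04. Col1a1, the main chain of type I collagen, read 4.42 ± 0.09, 1.86 ± 0.07 and 5.55 ± 0.08 over 10 spots, 5.90-fold below the nearer line. The proteoglycans Dcn (2.93, 0.24 and 3.45) and Lum (2.92, 0.29 and 3.25) were 6.45-fold and 6.21-fold lower, and Col3a1 read 3.44, 1.02 and 4.22. Of the 27, 9 genes, such as Thbs1 at -1.58, -3.61 and 0.68, were also at least 2-fold above both others in ESF58/2, so that the 3 lines were spread widely. Signals of 26 of the 27 genes remained well above background in ESF175/1, the exception being Fap, a fibroblast surface protease.

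The 7 fibroblast genes not lower in ESF175/1 by their brightest probe were Acta2, Vim, Fn1, Ccn1, Ccn2, Tagln and Col6a2. Vim, an intermediate filament protein, read 4.73, 4.80 and 5.58. The probes of Acta2, smooth muscle actin, disagreed: the brightest read 2.75, 2.71 and 2.83, and another, spotted 10 times, read -0.18 ± 0.12, -1.76 ± 0.20 and 1.40 ± 0.06, 2.98-fold below in ESF175/1 and 2.99-fold above in ESF58/2. Dimmer probes of Tagln and Col6a2 were lower in ESF175/1 as well, by 2.96-fold and 2.49-fold. The feeder cells were the same kind in all cultures by the labels, and the number of feeder cells in each sample is not given.

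**Figure D3:**
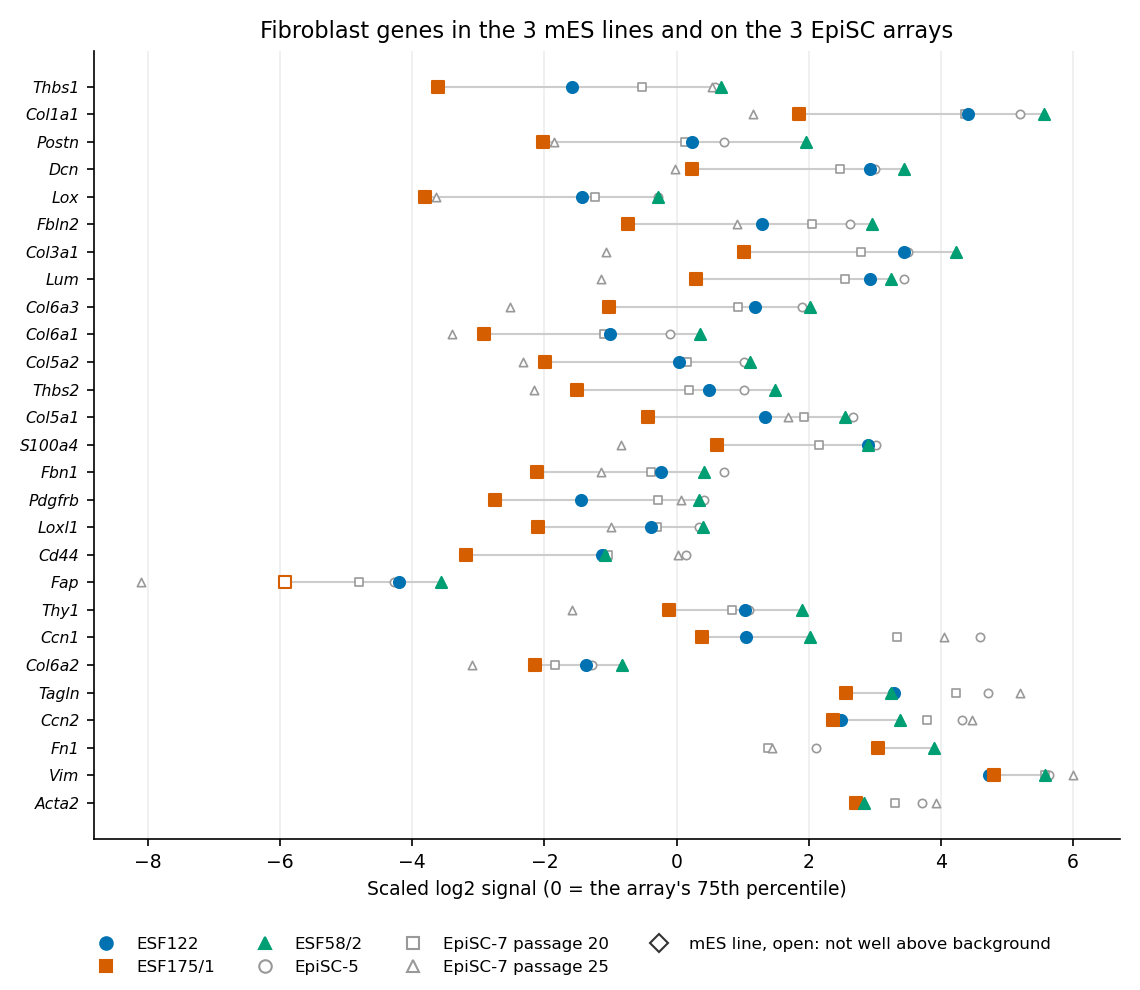
Scaled log2 signal (horizontal axis) of 27 fibroblast genes in the 3 mES lines (filled symbols) and on the 3 EpiSC arrays (grey), 1 array each, ordered by the difference of ESF175/1 from the mean of the other mES lines. ESF175/1 is lowest of the mES lines for all but Vim and Fn1, and EpiSC-7 passage 25 is as low or lower for Col1a1, Dcn, Lum and Col3a1.

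Genes of immune defence were lower with them in ESF175/1, where 3.46% of all genes were below both other lines. Class I antigen presentation had 5 of 18 genes below both other lines, among them B2m, the light chain of class I molecules, at 3.101, 1.29 and 3.32 (3.50-fold), and the heavy chains H2-D1 at 3.40, 1.97 and 3.38 and H2-Q7 at 3.17, 1.91 and 3.09. The H2 genes are near-identical copies, so each probe may read several. Interferon-response genes had 4 of 22 lower, such as Ifit3 at 0.83, -1.50 and 2.23 and Rsad2 at -1.93, -3.59 and -0.79, and both of these were also above in ESF58/2. Under normexp, 2 interferon genes stayed lower in ESF175/1 and 1 of 5 stayed above in ESF58/2, and under median scaling 8 class I genes were lower. The summed signal of the interferon list was 173.6, 143.4 and 115.1, and that of the class I list 113.3, 48.2 and 97.5. For the fibroblast genes the sum was 131, 69.6 and 226, so the 3 sums did not order the lines alike. The median gene read 1.366, 0.804 and 1.513 in the interferon list and 1.045, -0.877 and 1.99 in the fibroblast list. By these medians the interferon and fibroblast lists were highest in ESF58/2 and lowest in ESF175/1. The class I median, at 2.324, 1.028 and 2.097, was highest in ESF122 and lowest in ESF175/1. The part of fibroblast RNA in these genes was not tested.

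Some genes lower in ESF175/1 lay next to each other. Of its 530 lower genes, 18.9% had a called neighbour in the same direction, but this share depends on the size of the set and does not rank the lines: ESF122's 194 lower genes gave 13.9%. The longest run held 6 interferon-inducible genes of the Ifi200 family on chromosome 1, from Ifi209 to Ifi205, with Ifi202b at 0.82, -1.65 and 1.42 (5.54-fold) and Ifi204 at -0.04, -2.28 and 0.72 (4.73-fold). On chromosome 11, 5 neighbouring chemokine genes were lower together. Among them was Ccl2, which draws monocytes, with values of 2.16 ± 0.08, -0.33 ± 0.08 and 2.96 ± 0.07 over 10 spots. The matrix metalloproteinases Mmp13, Mmp3 and Mmp10 were another run, Mmp3 reading 1.92, -0.37 and 1.98. Members of such families share sequence, and a probe may read more than 1 of them.

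Imprinted genes were called in both directions in ESF175/1. Of 16 paternally expressed genes, 2 were lower and 1, Peg12, was higher, and of 19 maternally expressed genes, 2, H19 and Dcn, were lower and 0 higher, beside 3.46% and 1.20% of all genes. Dcn was also counted among the fibroblast genes above. Igf2, a fetal growth factor, read 3.17 ± 0.07, 0.96 ± 0.08 and 3.46 ± 0.07 over 10 spots (4.62-fold lower), H19, the noncoding RNA beside it, 1.70, 0.22 and 2.36 (2.78-fold), and Dlk1 0.41, -0.87 and 0.33 (2.30-fold). Igf2 is expressed from the paternal and H19 from the maternal copy, and both were lower in the same culture. Igf2, H19 and the summed fibroblast signal were lowest in ESF175/1 and highest in ESF58/2, while Dlk1 was highest in ESF122. The part of feeder RNA in these genes was not tested.

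The 266 probes higher in ESF175/1 were of another kind. They were dim, 63.5% having their brightest mES signal below a scaled log2 of -2, beside 33.9% of all entering probes. Of 118 genes with a further probe, 2 (1.69%) had every probe called, where the other sets had between 14.8% and 21.8%. The largest was Thumpd1, an RNA acetylation adaptor, at -3.67, 3.45 and -3.15, or 97.6-fold, with EpiSC signals of 2.94, 3.26 and 3.35 and a second probe at -1.24, -1.48 and -2.12 that did not follow. Trim12a, a member of the Trim5-like family of antiviral proteins, read -4.25, 0.96 and -3.67 (24.6-fold), and its second probe, 6.27-fold higher, did. Hbb-bh1, an embryonic beta-globin, read -4.49, -1.22 and -4.43, while the embryonic alpha-like globin Hba-x was not well above background in this line. Syce1, a component of the synaptonemal complex, at 1.77, 2.97 and 1.65, was among the brighter genes of the set.

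ESF122 had the fewest probes of its own, and its lower genes held 7 of 10 genes of the 2-cell stage, beside 1.27% of all genes. Zscan4c, which marks the short-lived 2-cell-like state, read 0.68, 2.97 and 2.39 (3.28-fold below the nearer line). Tcstv1 read -0.94, 1.35 and 2.61 (4.92-fold), Tcstv3 -1.20, 0.41 and 2.05, and Zfp352 -4.91, -2.66 and -1.77. Usp17la, a deubiquitinase gene of a repeated family, read -0.82, 1.42 and 1.80, and its relatives Usp17lb and Usp17lc were lower too. The summed signal of the 10 genes was 3.52, 14.8 and 19.07 in the mES lines and between 0.499 and 0.838 on the EpiSC arrays. Zscan4, Tcstv and Usp17l genes are near-identical copies, and the copy each probe reads is uncertain. Tcstv1 and Tcstv3 were also at least 2-fold above both others in ESF58/2. Of the 3 genes not lower in ESF122, Sp110 was higher in ESF58/2 and Tdpoz1 and Arg2 set no line apart.

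The same line had higher signals of some epiblast genes. Of 17, 4 were above both others and 0 below, beside 1.42% and 1.27% of all genes. The list's summed signal was 146.8, 132 and 74.0, so ESF58/2 lay further from ESF175/1 than ESF122 did. Otx2, a homeobox factor of the epiblast and anterior brain, read 0.64 ± 0.08, -0.82 ± 0.16 and -0.84 ± 0.05 over 10 spots (2.77-fold), Fst, the activin-binding protein follistatin, -0.82, -2.60 and -2.29 (2.77-fold), and Fgf15 -0.60, -1.72 and -2.17 (2.17-fold). Fgf5 was 4.96-fold above ESF175/1. The 4 genes were 1.34 to 5.44 on the EpiSC arrays, apart from Fst at -0.26, 1.38 and 1.25. Other epiblast genes did not differ in this way: Pou3f1 and Dnmt3a were within 2-fold between ESF122 and ESF175/1. From the streak list Wnt3 (-1.15, -2.44 and -4.73) and Foxa2, at -1.95 ± 0.06, -2.96 ± 0.10 and -4.59 ± 0.77 over 10 spots, were highest in ESF122 and lowest in ESF58/2, with at least 2-fold between neighbours in that order. Wnt8a, at 0.41, -0.83 and not well above background in ESF58/2, had the same order, and under normexp Wnt8a alone stayed at least 2-fold higher in ESF122. Gbx2, a homeobox gene of the naive state, was 2.31-fold lower in ESF122.

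**Figure D4:**
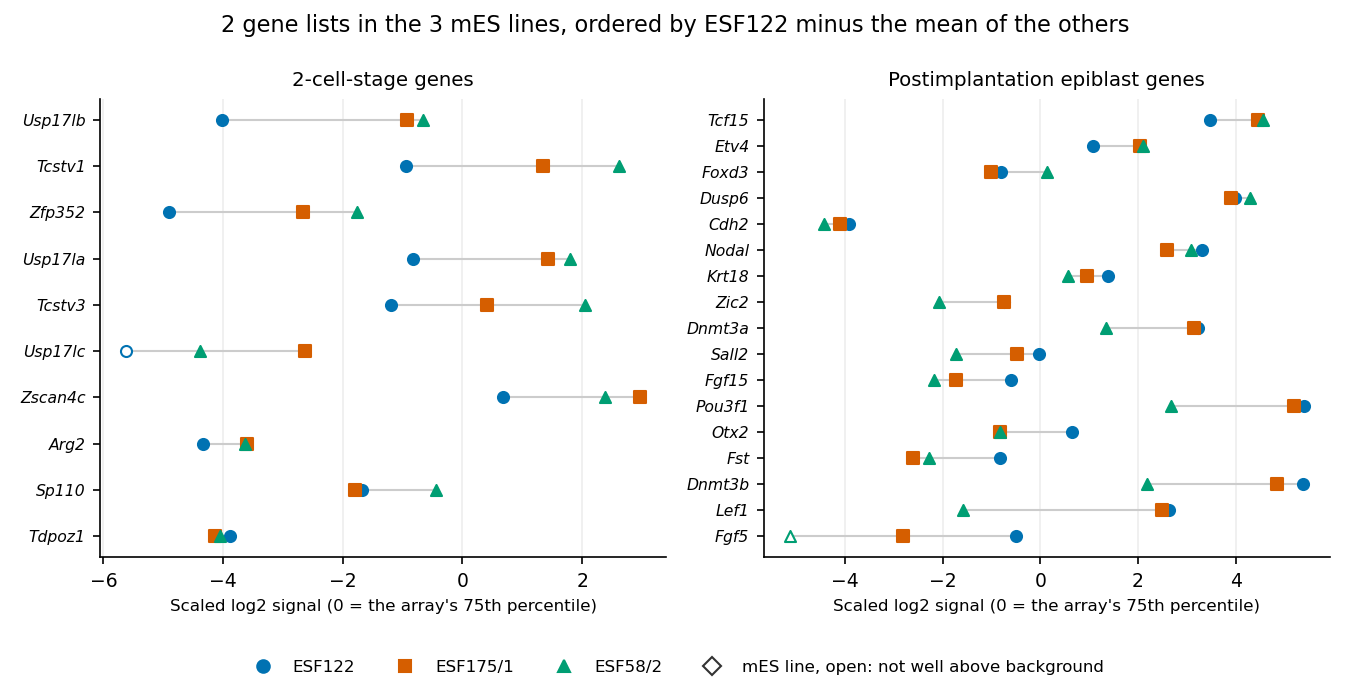
Scaled log2 signal (horizontal axis) of every measured gene of the 2-cell-stage and postimplantation epiblast lists in the 3 mES lines, 1 array each, ordered by the difference of ESF122 from the mean of the others. Circles for ESF122 are leftmost for the 7 called 2-cell-stage genes and rightmost for Fst, Otx2, Fgf5 and Fgf15.

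Single genes again gave the largest differences. Ipp, an actin-binding kelch protein, read 5.73, -0.15 and -0.36, 59.1-fold above the nearer line in ESF122, while its second probe at -1.96, -2.55 and -3.02 showed less than 2-fold. For Baiap2l1, an adaptor of the actin cytoskeleton, both probes stood above, by 48.6-fold and 50.04-fold. Pi4k2b, a lipid kinase, was 8.67-fold higher by the one probe and higher by the other. Downward, Akr1e1, a reductase, read -4.50, -1.12 and -0.31 (10.4-fold), Trmt61b, a mitochondrial tRNA methyltransferase, -4.49, -1.20 and -0.77 (9.78-fold), and Sft2d1 was at least 6.46-fold lower. On the EpiSC arrays Trmt61b lay between -1.12 and -0.99. A run of 3 adjacent drug transporter genes, Abcb1a, Abcb1b and Abcb4, was lower between 2.21-fold and 2.63-fold.

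Other lists showed few differences. Of 20 p53 target genes and 22 genes of cholesterol synthesis, 0 were called in any line. Housekeeping genes gave 1 call of 16, B2m, and 15 heat shock genes gave 1, Hmox1, lower in ESF58/2. Of the trophectoderm genes Elf5 and Hand1 did not enter, Cdx2 read -4.52, -3.70 and not well above background, and Gata3 -4.12, not well above background and -4.09. The neural marker Nes at 0.86 ± 0.08, 0.86 ± 0.06 and -0.77 ± 0.15 and the factor Sox11 at -0.50, -0.67 and -2.71 were lower in ESF58/2. There 3 of 14 neural genes were lower, beside 4.13% of all genes.

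The EpiSC arrays gave a readout that the rule had not used. Of the 682 probes lower in ESF175/1, 68.0% differed at least 2-fold between the highest and the lowest EpiSC array, beside 16.9% of all entering probes and 24.4% to 45.6% of the other 5 sets. In 33.4% of them EpiSC-7 was at least 2-fold lower at passage 25 than at passage 20, beside 6.82% of all, and in 7.62% at least 2-fold higher, beside 3.66% of all. The median fibroblast gene read 0.88 in EpiSC-7 at passage 20 and -0.92 at passage 25, although the summed signal of the list was 166 and 173. Col3a1, for example, read 3.50 in EpiSC-5, 2.79 at passage 20 and -1.07 at passage 25. The probes that set ESF175/1 below the other mES lines varied among cultures of the other cell type too, including between arrays of 1 line. Passage cannot be told apart from slide position in that line. All 6 sets exceeded the share of all probes that differed at least 2-fold between the highest and lowest EpiSC array. They were also dimmer on these arrays, with medians between -3.53 and -1.97 against -1.07 for all entering probes. The part of dim signals in the shares was not tested.

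**Figure D5:**
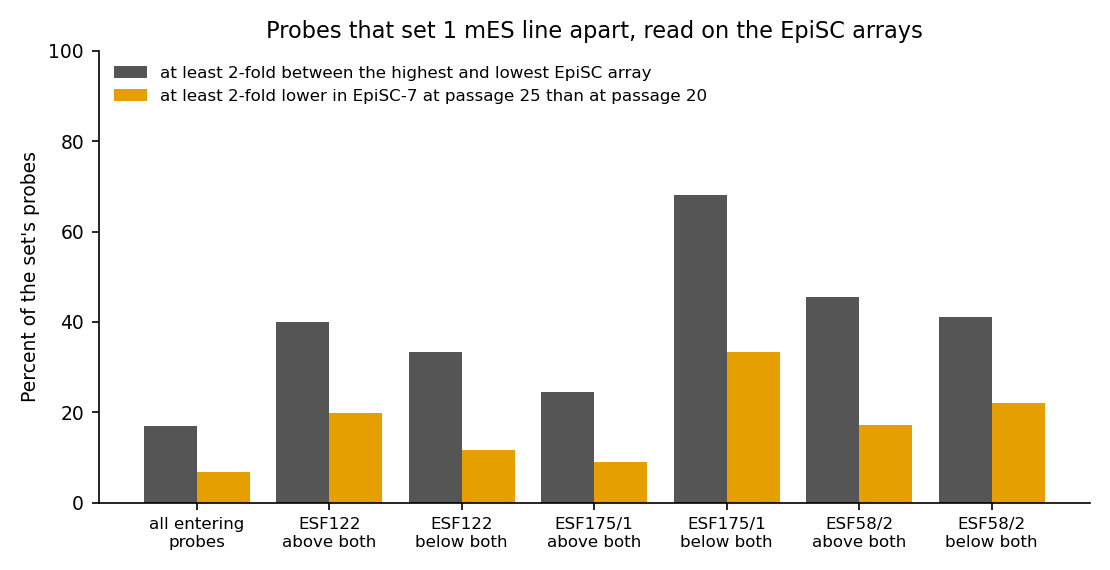
Percent of probes (vertical axis) in each set that differed at least 2-fold between the highest and lowest of the 3 EpiSC arrays (grey) or were at least 2-fold lower in EpiSC-7 at passage 25 than at passage 20 (orange). The probes lower in ESF175/1 stand at 68.0% and 33.4%, all entering probes at 16.9% and 6.82%.

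Relative to all autosomal genes, the median difference of a chromosome's genes from the mean of the other lines lay between -0.05 and 0.06 in ESF122, between -0.03 and 0.10 in ESF175/1 and between -0.12 and 0.06 in ESF58/2. Each value sets a line against the mean of the others, so the values of the lines are tied and not separate observations. The 822 genes of chromosome 8 stood apart in 2 lines. They gave the highest value in ESF175/1, 0.10, where the next highest was 0.03 on chromosome 11, and the lowest in ESF58/2, -0.12, where the next lowest was -0.06 on chromosome 6.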

How the data were processed

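RNA of 6 cultures, extracted with TRIzol and labelled with Cy3 per the labels' protocols, was hybridised to 1-colour Agilent arrays. The deposited intensities are the scanner software's processed signals (Agilent Feature Extraction 9.1.3.1). Per the file headers that software removed spatial and multiplicative trends but subtracted no local background. The intensities are not normalized between arrays. The deposited value table holds the same intensities rounded. Here, control spots and outlier spots were left out, spots of a probe were averaged, and log2 intensity was set relative to each array's 75th percentile. Probes were named through a RefSeq GRCm38.p6 table: 22951 by accession, 6659 by symbol, 3109 by an older symbol, and 8455 of 41174 not at all. Folds are to the nearer of the other lines. A value not well above background was raised to the array's lowest signal that was, and the fold is printed as "at least". Each list gene was taken at its brightest entering probe.

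Each line has 1 array, so no test was run, and whether the 3 lines are separate derivations is only known from the labels, which call them biological replicates. The members, the lists and the rule were chosen with earlier results of these data known. Genes were named by a rule: per line and direction the 10 largest differences above background on all 3 arrays, the 5 largest bounds, up to 3 members per list, and a fixed set of marker genes. Genes of adjacent runs, and others outside it, were chosen after their values were seen. Adjacent means next to each other among the entering genes in the RefSeq order. Alternatives were median scaling, quantile normalization, normexp background correction (limma 3.58.1 in R 4.3.3, offset 50), the value table, other background filters, folds of 1.5 and 4, and 1 probe per gene. Python 3.11.15 with numpy 2.4.6, pandas 2.3.3 and matplotlib 3.10.9 was used. The procedure was tested on simulated data for probes well above background on all 3 arrays, which did not cover dim values.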

Additional observations from a re-analysis of the deposited data

How the results depend on the processing

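No paired analysis was possible because each mES line has 1 array and the labels carry no replicate numbers, so no array could be left out either. Counts above and below both other lines under normexp background correction, which compresses dim signals, were 132 and 103 in ESF122, 64 and 207 in ESF175/1, and 294 and 283 in ESF58/2. The pairs then differed at 621 probes (ESF122 and ESF175/1), 1263 (ESF122 and ESF58/2), 1137 (ESF175/1 and ESF58/2) and 1076 (EpiSC-7 at its passages). At 1.5-fold the counts were 957 and 866, 818 and 1241, and 1557 and 2818 in that order of lines; at 4-fold they were 32 and 69, 32 and 162, and 64 and 221. With quantile normalization 702 probes were below in ESF58/2, and 643 with a signal above background required on all 3 arrays. Probes above in ESF175/1 numbered 707 with 1 array required and 1019 with no filter, where ESF122 had 579. With 1 probe per gene, 194 were below in ESF122 and 632 in ESF58/2. The value table and median scaling moved no count by over 1.5 times. Raising dim values to the bound, an alternative chosen after seeing the data, left 308 and 275, 265 and 600, and 568 and 780.

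Of 226 calls of named genes, 219 stayed at least 2-fold under median scaling, 220 under quantile normalization and 173 under normexp, and 0 turned direction. Calls under 2-fold with normexp included Fgf5, Foxa2, T, Cdx2, Calcr, Ascl2, Cldn7, Ifi209 and Rsad2. With all 3 arrays required, 191 remained. Signal over background limits the lower calls: 42.2% of those in ESF58/2 give a bound.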

Other observations

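Some gene groups differed at a few members. Among germ-cell genes, Dazl, an RNA-binding protein of germ cells, read -1.003, 0.12 and 1.39 (scaled log2 signal in ESF122, ESF175/1 and ESF58/2), each line at least 2-fold from the next, and was not well above background on any EpiSC array. The meiotic genes Sycp1 (-0.04, 0.24 and -1.78) and Hormad1 (1.15, 1.35 and 0.11) were lower in ESF58/2, Hormad1 at 2.05-fold. Of 22 germ-cell genes, 1 was above and 2 were below in ESF58/2, beside 2.58% and 4.13% of all genes, so the counts lie near the share of all genes.

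Of 18 integrated-stress genes, 1 was below and 1, Ppp1r15a, was above in ESF58/2; 2 of 19 metallothionein and antioxidant genes and 1 of 15 heat shock genes were below, beside 4.13% of all genes. The lower ones were Ddit4, an inhibitor of mTOR signalling induced by stress (7.06, 6.78 and 4.37), Mt1, a metallothionein (4.21, 3.53 and 2.20), and Hmox1, heme oxygenase (4.40, 3.87 and 2.58). A second, dimmer probe of Mt1, at -0.51, -0.84 and -0.60, set no line apart. Ddit4 read 4.02 in EpiSC-5, 6.12 in EpiSC-7 at passage 20 and 2.58 at passage 25. Among mesoderm and blood genes, 5 of 18 were lower in ESF175/1, beside 3.46% of all genes. They included the mesenchymal factor Twist1 (-1.54, -3.00 and -1.62) and the VEGF receptor Flt1 (-1.500, -2.95 and -1.15), and under normexp 1, Flt1, stayed lower. The part of feeder RNA in these was not tested; the summed fibroblast signal was 131, 69.6 and 226. Wnt targets had 4 of 15 lower in ESF58/2, beside 4.13% of all genes: Lef1, T, Wnt3 and the receptor-degrading ligase Rnf43 (-1.75, -2.85 and -4.43). With median scaling and quantile normalization 3 were lower, and 1 under normexp.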
